A study of Mus musculus with 8 samples.

Results

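Identity and subtype genes of the spiral ganglion neurons (SGNs) were examined in the cochlear RNA seq of WT and *Opa1*+/- mice. The members are 9 genes, taken by symbol from the count files: *Gata3*, *Pou4f1* and *Runx1*, which encode transcription factors, *Tubb3* and *Rbfox3*, which mark neurons in general, and *Calb2*, *Calb1*, *Lypd1* and *Prph*, which mark kinds of SGN. Each member was listed once among the 47628 entries that name a gene, and all 9 were among the 19366 genes with a mean normalized count over 10 that were tested. The samples were whole isolated cochleae at 21 postnatal days, 1 library per mouse, from 4 WT littermates numbered 4, 5, 6 and 8 and from 4 *Opa1*+/- mice. The latter are mice 2 and 7 and a pair with 3-digit numbers, called mouse C and mouse D in the order of those numbers. *Opa1*+/- mice carry 1 copy of the OPA1 delTTAG deletion in every cell from the germline on, as a knock-in, and both genotypes share a mixed C57BL/6J and 129Sv/Pas background. Neither group was treated. The comparison asks whether the reduced *Opa1* dose goes with a change of SGN genes in juvenile mice. In whole cochlea, fewer neurons and less RNA per neuron cannot be told apart.

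SGNs are the bipolar neurons that carry sound information from the hair cells to the cochlear nuclei. Type I neurons contact the inner hair cells and fall into molecular subtypes named Ia, Ib and Ic, of which Ia is rich in *Calb2*, Ib in *Calb1*, and Ic in *Lypd1* and *Pou4f1*. *Runx1* marks Ib and Ic neurons, whereas the sparser type II neurons, which contact the outer hair cells, carry peripherin, the product of *Prph*. None of these genes is restricted to SGNs, since *Calb1* and *Calb2* are also known from hair cells, *Gata3* from the sensory epithelium, *Runx1* from blood cells, and *Tubb3* and *Prph* from peripheral neurons of other ganglia.

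The libraries held between 15978051 and 20828030 counts on named genes. *Opa1* itself had a level of 119.7 ± 6.09 CPM (counts scaled to a common library size; SD, n = 4) in WT cochleae and of 65.6 ± 4.42 CPM in *Opa1*+/- cochleae, and every *Opa1*+/- mouse was below every WT mouse (log2 fold change -0.87, adjusted p = 0.00515, edgeR quasi-likelihood test with Benjamini-Hochberg adjustment). With 1 mouse left out, the adjusted p of *Opa1* stayed between 0.00587 and 0.0456 in 7 of 8 fits. It was 0.0704 without *Opa1*+/- mouse 2 and 0.260 without both mice C and D, with log2 fold changes of -0.85 and -0.86. The cochlear marker lists for hair cells and supporting cells were present in every library, with summed levels of 222 to 325 CPM and 786 to 1250 CPM. Of 4 genes of inhibitory neurons of the brain, *Gad2*, *Slc32a1* and *Slc6a5* stayed at or below 0.439 CPM in all mice and *Gad1* was at 1.36 to 3.90 CPM. Genes of nociceptors, the pain-sensing neurons of the sensory ganglia of body and head, were present in 7 libraries and far lower in that of WT mouse 6. The summed level of 10 such genes was 57.95 CPM in WT mouse 6 and 382 to 590 CPM elsewhere, with *Scn10a*, a sodium channel of nociceptors, at 1.02 CPM against 90.1 to 145 CPM, and with *Mrgprd*, a receptor of skin nociceptors, at 0.179 CPM against 14.5 to 26.7 CPM. The 10 genes were each lowest in WT mouse 6. *Scn10a* and *Mrgprd* were the furthest below the other 7 mice, at 0.943% and 1.02% of their median. The least reduced were *Trpa1*, *Pirt* and *Tac1*, at 15.9%, 20.8% and 51.5%. The list was chosen after the data were seen, and differences between genotypes whose direction turns without this mouse are given both ways.

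No difference between genotypes was detected for any of the 9 members. No member passed an adjusted p of 0.05, against 0.0258% of all genes tested, and none had an unadjusted p under 0.05, against 6.72% of all genes tested. DESeq2 also gave 0 members at either threshold, with an adjusted p of 0.997 for each. The values of the 4 WT and 4 *Opa1*+/- mice overlapped for all 9 members, and 4.31% of all genes tested had groups without overlap. The fitted log2 fold changes ran from -0.25 for *Calb1* to 0.19 for *Gata3*, with a median of 0.04 over the members and 0.00 over all genes tested, and 6 were above 0 and 3 below. The median of the members was -0.03 without WT mouse 6, with 4 above 0 and 5 below, and without both mice C and D 2 were above 0 and 7 below.

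**Figure D1:**
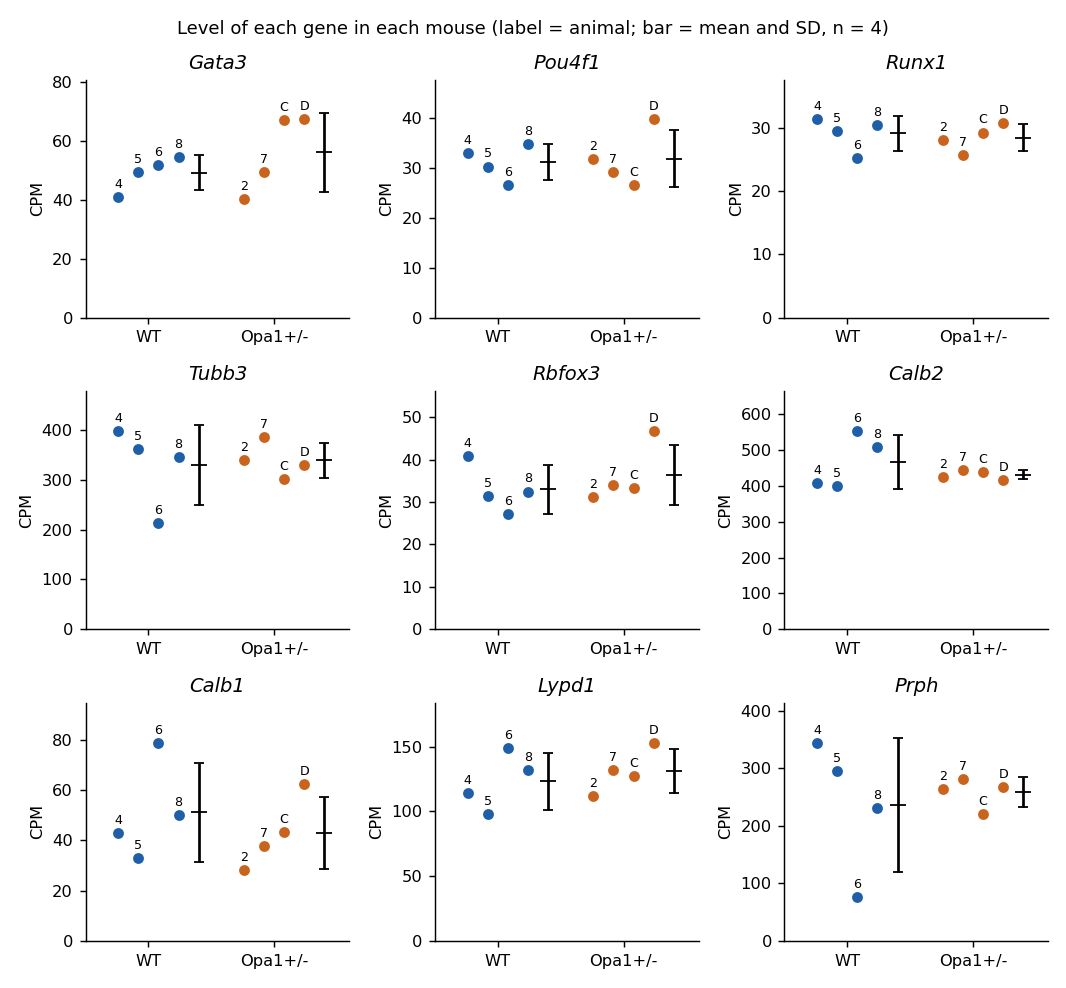
CPM of the 9 genes on linear axes from 0, with 1 point per mouse labelled with its animal number, and the mean and SD of each genotype (n = 4) beside the points. The genotypes overlap in every panel, and WT mouse 6 is the lowest point for *Prph* (76.1 CPM) and *Tubb3* (213 CPM) and the highest for *Calb2* (553 CPM) and *Calb1* (78.9 CPM).

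Scaled to exonic length, the members spanned a wide range of levels. *Calb2* stood highest, at a mean of 257 CPM per kilobase of exonic length over the 8 mice, and its lowest mouse (229 CPM per kilobase) was above the highest mouse of the next gene, *Tubb3* (213 CPM per kilobase). *Tubb3* averaged 179 and *Prph* 124 CPM per kilobase, and their ranges over the mice overlapped. A gap separated these 3 genes from the rest: *Lypd1* averaged 18.1, *Gata3* 13.2, *Calb1* 9.71, *Pou4f1* 6.75 and *Rbfox3* 5.95 CPM per kilobase, each range overlapping that of the next gene in the order. *Runx1* was lowest, at 2.39 CPM per kilobase, with a range of 2.10 to 2.60 that lay below that of *Rbfox3*. The marker of subtype Ia therefore gave more transcript per length than those of Ib and Ic in every cochlea of either genotype.

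**Figure D2:**
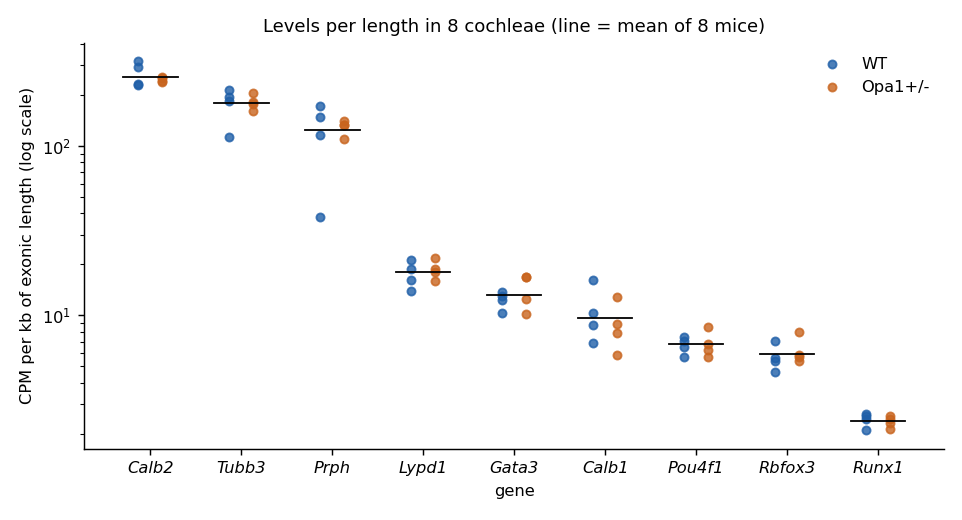
CPM per kilobase of exonic length on a log axis for the 9 genes, ordered by the mean over 8 mice (black line), with WT and *Opa1*+/- mice as separate columns of points. *Calb2*, *Tubb3* and *Prph* sit above the other 6 genes in every mouse, and WT mouse 6 is the detached *Prph* point at 38.0 CPM per kilobase.

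Among the transcription factors, *Gata3* (chromosome 2, 9857078 to 9890034, minus strand, GRCm38), a zinc finger factor needed for SGN development, was at 40.9, 49.3, 51.9 and 54.5 CPM across WT mice 4, 5, 6 and 8. In *Opa1*+/- mice 2, 7, C and D it was at 40.3, 49.5, 67.1 and 67.3 CPM. The *Opa1*+/- group thus held the lowest value and both highest values. The fitted difference was 1.14-fold on the means, with a log2 fold change of 0.19 (SE 0.16, 95% interval -0.18 to 0.56, adjusted p = 0.843). The direction rested on mice C and D together, since without both the log2 fold change was -0.13 (adjusted p = 1.0). With single mice left out it ran from 0.09 to 0.32, and was highest without *Opa1*+/- mouse 2. Both of these mice also had high summed levels of the neutrophil and marrow list, at 831 and 1148 CPM, although WT mouse 4 had 1375 CPM with a low *Gata3*. The part of these values in the *Gata3* result was not tested. *Gata3* shares 77 exonic bases with *9230102O04Rik* on the same strand, which reached at most 1.08 CPM. Whether *Gata3* lost reads over these bases was not tested.

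*Pou4f1* (chromosome 14, 104461676 to 104467999, minus strand), a POU homeodomain factor of sensory neurons also called Brn3a, was at 33.1, 30.3, 26.6 and 34.8 CPM across WT mice 4, 5, 6 and 8. The *Opa1*+/- mice 2, 7, C and D had 31.9, 29.2, 26.6 and 39.8 CPM. Each group had 1 mouse near 26.6 CPM and the rest mixed, and the log2 fold change was 0.03 (95% interval -0.26 to 0.32, adjusted p = 0.974, and -0.04 without WT mouse 6). *Runx1* (chromosome 16, 92601466 to 92826149, minus strand), a runt domain factor, varied little, at 31.3, 29.5, 25.2 and 30.5 CPM across WT mice 4, 5, 6 and 8 and at 28.0, 25.7, 29.3 and 30.7 CPM across *Opa1*+/- mice 2, 7, C and D. Its coefficient of variation was 9.35% in WT and 7.43% in *Opa1*+/- mice. The log2 fold change was -0.04, and the 95% interval of -0.23 to 0.15 covers ratios from 0.855 to 1.11.

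*Tubb3* (chromosome 8, 123411424 to 123422015, plus strand), which encodes the neuronal class of beta tubulin, was at 398, 362, 213 and 345 CPM across WT mice 4, 5, 6 and 8. In *Opa1*+/- mice 2, 7, C and D it was at 340, 385, 300 and 330 CPM. WT mouse 6 was the lowest of all, and 3 of the 4 *Opa1*+/- mice lay below the other 3 WT mice. The log2 fold change of 0.04 (SE 0.17, 95% interval -0.35 to 0.43, adjusted p = 0.972) became -0.12 without that mouse (adjusted p = 0.739). *Rbfox3* (chromosome 11, 118489762 to 118911597, minus strand) encodes the splicing factor NeuN, a standard nuclear label of mature neurons. It was at 40.9, 31.5, 27.1 and 32.5 CPM across WT mice 4, 5, 6 and 8 and at 31.3, 33.9, 33.2 and 46.7 CPM across *Opa1*+/- mice 2, 7, C and D. *Opa1*+/- mouse D and WT mouse 4 were the high mice, and the other 6 were close together. The log2 fold change was 0.14 (SE 0.15, adjusted p = 0.884), and it was -0.01 without *Opa1*+/- mouse D.

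Of the type I subtype markers, *Calb2* (chromosome 8, 110137502 to 110168210, minus strand) encodes calretinin, the calcium-binding protein of Ia neurons. It was at 408, 399, 553 and 508 CPM across WT mice 4, 5, 6 and 8 and at 424, 443, 439 and 415 CPM across *Opa1*+/- mice 2, 7, C and D. The *Opa1*+/- mice lay close together, with a coefficient of variation of 2.97% against 16.2% in WT, and inside the WT range. The difference in spread was not tested. The log2 fold change was -0.12 (SE 0.11, 95% interval -0.36 to 0.12, adjusted p = 0.849), and it was -0.03 without WT mouse 6.

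*Calb1* (chromosome 4, 15881264 to 15908064, plus strand), which encodes calbindin D28k and marks Ib neurons, was among the most variable members in both genotypes. It was at 42.8, 33.1, 78.9 and 49.99 CPM across WT mice 4, 5, 6 and 8, and at 28.2, 37.9, 43.4 and 62.2 CPM across *Opa1*+/- mice 2, 7, C and D. Each group held 1 mouse well above the others, mouse 6 in WT and mouse D in *Opa1*+/-. The log2 fold change of -0.25 had an SE of 0.29 and a 95% interval of -0.90 to 0.39 (adjusted p = 0.887). It was 0.03 without WT mouse 6 and -0.49 without *Opa1*+/- mouse D, so that its sign and size depended on these mice.

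*Lypd1* (chromosome 1, 125867622 to 125913101, minus strand), which encodes a Ly6 protein anchored to the cell surface and marks Ic neurons, was at 114, 98.2, 149 and 132 CPM across WT mice 4, 5, 6 and 8. In *Opa1*+/- mice 2, 7, C and D it was at 112, 132, 127 and 153 CPM. The values of both groups interleaved, and the log2 fold change was 0.09 (SE 0.14, 95% interval -0.22 to 0.39, adjusted p = 0.918). Its exons share 1202 bases with *Gpr39* on the opposite strand, which reached at most 0.597 CPM. The use of strand in counting is not given in the sources used here, and whether *Lypd1* lost reads over these bases was not tested.

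*Prph* (chromosome 15, 99055174 to 99058978, plus strand) encodes the intermediate filament peripherin of type II SGNs. It was at 345, 295, 76.1 and 231 CPM across WT mice 4, 5, 6 and 8 and at 264, 281, 221 and 268 CPM across *Opa1*+/- mice 2, 7, C and D. WT mouse 6 was at 28.4% of the median of the other 7 mice, and outside that mouse the *Opa1*+/- values fell between the WT values or just below them. The log2 fold change was 0.13 with the widest interval of the 9 genes, -0.68 to 0.93, which covers ratios from 0.625 to 1.91 (SE 0.36, adjusted p = 0.959). Without WT mouse 6 the log2 fold change was -0.17 (adjusted p = 0.747).

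**Figure D3:**
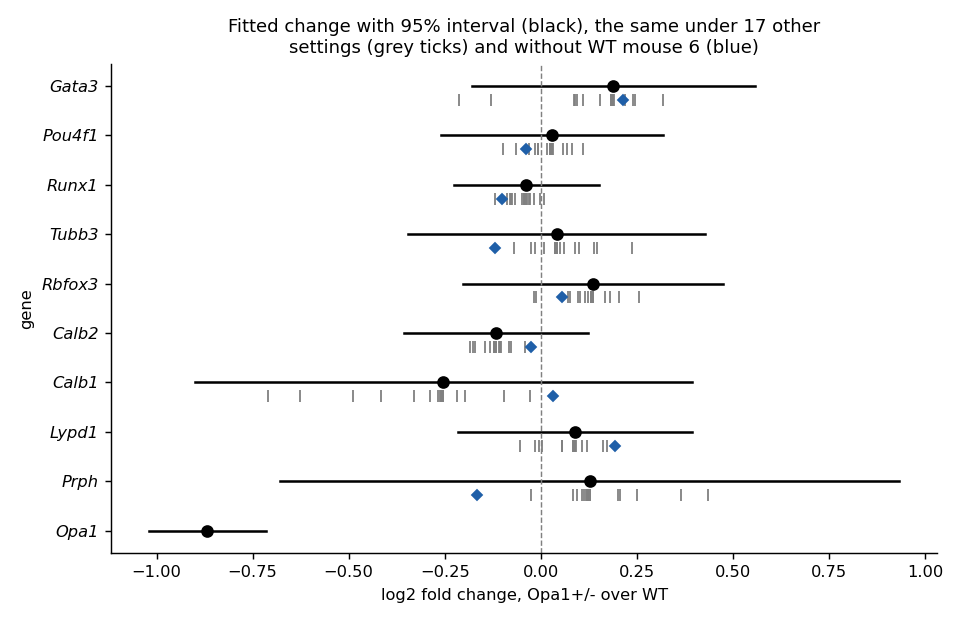
Log2 fold change of *Opa1*+/- over WT for the 9 genes and *Opa1* (black points) with 95% intervals (black lines), and the values of the 9 genes under 17 other settings (grey ticks) and without WT mouse 6 (blue diamonds). All 9 intervals cross 0, whereas that of *Opa1* runs from -1.02 to -0.72, and *Calb1*, *Pou4f1*, *Tubb3* and *Prph* change sign without WT mouse 6.

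WT mouse 6 held the outermost value of the 8 mice for 6 of the 9 members, and for 38.0% of all genes tested. *Opa1*+/- mouse D did so for 4 of the 9 members and 33.5% of all genes tested, and the other 6 mice for 18.4% to 26.0% of all genes tested. In WT mouse 6, *Prph*, *Tubb3*, *Rbfox3* and *Runx1* were lowest, at 28.4%, 61.5%, 81.6% and 85.3% of the median of the other 7 mice. *Calb2* and *Calb1* were highest in WT mouse 6, at 130% and 184%. The pan-neuronal sum of 14 genes did not set this mouse apart, at 6663 CPM against 5801 to 7039 CPM, but 4 of its genes were lowest and 2 highest there. *Gap43*, a growth cone protein that remains in some adult sensory neurons, was at 8.96 CPM in WT mouse 6 and at 44.7 to 88.0 CPM elsewhere, whereas *Nefh*, the heavy neurofilament, was at 1580 CPM in WT mouse 6 and at 1040 to 1400 CPM elsewhere.

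*Prph* followed the nociceptor genes from mouse to mouse. Across the 7 mice other than WT mouse 6, which lies far from them, *Prph* and the nociceptor sum correlated with a Pearson r of 0.94 (exact permutation p = 0.000198, adjusted p = 0.0161) and a Spearman rho of 1.0 (exact permutation p = 0.000397, adjusted p = 0.0321), adjusted over 81 relations of members to cell type sums. Without the 2 of these mice farthest from the median of the sum, r was 0.78. The 7 mice ranked in the same order on both measures. The 81 relations were 9 with the nociceptor sum over 7 mice and 72 with other sums over 8 mice. Because the nociceptor list was chosen after these data were seen, the p-values describe the relation and are no independent test of it. For *Tubb3* the same r was 0.87 and rho was 0.82 (exact permutation p = 0.0107 and 0.0341, adjusted p = 0.239 and 0.644), with r of 0.83 without the 2 farthest mice, so the relation did not pass the adjustment. *Calb2* gave an r of -0.53 and *Pou4f1* of 0.01 (exact permutation p = 0.218 and 0.983), and no other member passed the adjustment. With the nociceptor sum as a covariate over all 8 mice, WT mouse 6 included, a setting added after the data were seen, the log2 fold change between genotypes was -0.03 for *Prph*, -0.07 for *Tubb3* and -0.04 for *Calb2*, with adjusted p-values of 0.929, 0.793 and 0.893.

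**Figure D4:**
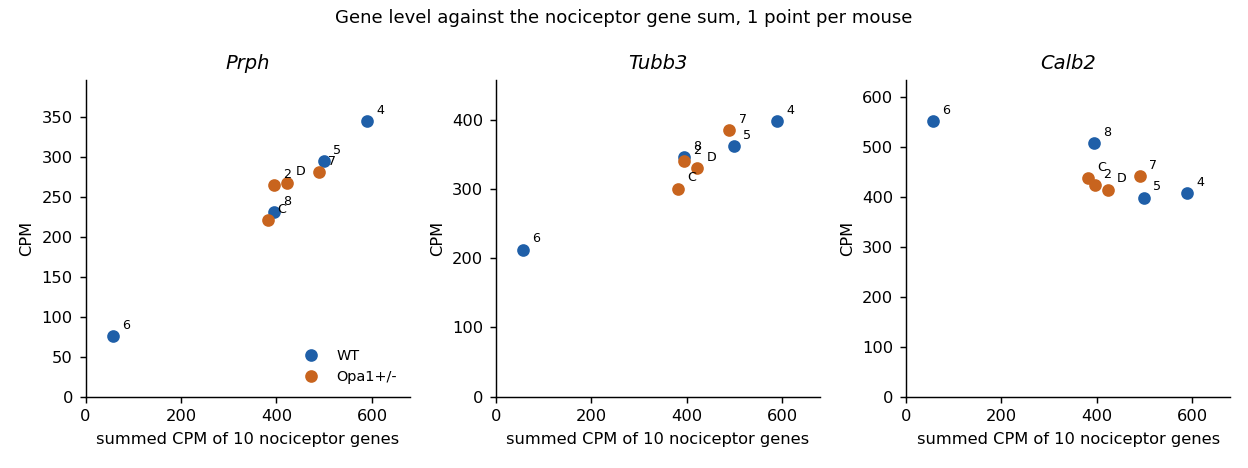
CPM of *Prph*, *Tubb3* and *Calb2* against the summed CPM of 10 nociceptor genes, with 1 point per mouse labelled with its animal number and linear axes from 0. WT mouse 6 stands alone at a sum of 57.95 CPM, and the other 7 mice lie between 382 and 590 CPM, where *Prph* rises with the sum.

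Outside WT mouse 6 the genotypes overlapped on the nociceptor sum, with 394 to 590 CPM in the other 3 WT mice and 382 to 490 CPM in the 4 *Opa1*+/- mice. What part of the *Prph* and *Tubb3* counts such neurons supply was not tested.

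*Prph* and *Tubb3* were also the pair of members that varied most alike over the 8 mice (r = 0.97 of log2 CPM, and 0.84 without WT mouse 6, as a description), so sequence before both genes is shown. It is printed 5′ to 3′ on the strand of the gene (GRCm38.p6), with the letters TATAA in capitals. For *Prph* it is the 250 bases before the RefSeq start site, chr15:99054924-99055173 plus strand. For *Tubb3* it is the 121 bases of that window that lie before the GENCODE gene, chr8:123411303-123411423 plus strand, since 129 of its bases are inside the gene by that annotation.
Prph: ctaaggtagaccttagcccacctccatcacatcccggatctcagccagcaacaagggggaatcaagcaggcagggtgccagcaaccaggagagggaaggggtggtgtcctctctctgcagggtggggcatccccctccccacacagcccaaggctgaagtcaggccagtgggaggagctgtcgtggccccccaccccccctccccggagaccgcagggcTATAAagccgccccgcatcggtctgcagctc
Tubb3: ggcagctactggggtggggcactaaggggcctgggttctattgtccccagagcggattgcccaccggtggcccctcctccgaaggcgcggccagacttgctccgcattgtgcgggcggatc

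Both full windows of 250 bases hold TATAA on the strand of the gene, starting 31 bases before the RefSeq start site in *Prph* and 30 bases before it in *Tubb3*, there within the GENCODE gene. Of 32851 promoter windows of this length, 16.0% hold these letters anywhere. RefSeq promoters were found for 7 of the 9 members, in 10 windows, and 3 windows held TATAA, the other being *Pou4f1*, far upstream. For the members that encode factors, motifs were searched on both strands. The GATA motif AGATAA was found in no window of a member and in 9.99% of all windows. The motif TGTGGT of RUNX factors was found in 1 of the 3 windows of *Lypd1* and in 14.0% of all windows. The core TAATTA, which POU and other homeodomain factors bind, was found in no window of a member and in 4.84% of all windows. These are matches of letters only.

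The ratios between subtype marker genes within a mouse overlapped between genotypes. *Prph* followed the nociceptor sum, and what part of it in these ratios comes from SGNs was not tested. *Calb1* was at 10.7% ± 2.54 of the *Calb2* level in WT and at 10.02% ± 3.57 in *Opa1*+/- mice (SD, n = 4), as ratios of CPM without correction for length. *Lypd1* relative to *Calb2* was at 27.9%, 24.6%, 26.9% and 26.0% in WT mice 4, 5, 6 and 8 and at 26.3%, 29.9%, 29.0% and 36.9% in *Opa1*+/- mice 2, 7, C and D. This ratio of an Ic to an Ia marker varied little in WT, with WT mouse 6 inside the range of the others, and 3 of 4 *Opa1*+/- mice were above the highest WT mouse. The ratios were not tested. *Pou4f1* relative to *Calb2* was at 6.84% ± 1.45 in WT and 7.44% ± 1.55 in *Opa1*+/- mice, and *Runx1* at 6.42% ± 1.44 and 6.62% ± 0.647. *Prph* relative to *Calb2* was at 54.4% ± 31.7 in WT, with WT mouse 6 at 13.8% and the others at 45.5% to 84.5%, and at 60.1% ± 6.62 in *Opa1*+/- mice. Without WT mouse 6 the WT means were 68.0% for *Prph*, 9.55% for *Calb1*, 7.52% for *Pou4f1*, 7.03% for *Runx1* and 26.2% for *Lypd1*, so that the order of the genotype means turned for each of them but *Lypd1*.

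Relative to the pan-neuronal sum, *Lypd1* was highest in WT mouse 6, at 2.23%, and 3 of 4 *Opa1*+/- mice, at 2.12% to 2.18%, were above the other WT mice, at 1.66% to 2.00%. *Lypd1* made 1.90% ± 0.273 of that sum in WT and 2.07% ± 0.176 in *Opa1*+/- mice, *Pou4f1* 0.483% ± 0.0597 and 0.501% ± 0.0504, and *Runx1* 0.452% ± 0.0543 and 0.450% ± 0.0374. *Calb1* made 0.785% ± 0.278 and 0.672% ± 0.183, and *Prph* 3.69% ± 1.85 and 4.09% ± 0.360. Without WT mouse 6 the WT means were 1.78% for *Lypd1*, 0.511% for *Pou4f1*, 0.476% for *Runx1*, 0.651% for *Calb1* and 4.54% for *Prph*, and the order of the means turned for *Pou4f1*, *Calb1* and *Prph*. All 10 ratios, to *Calb2* or to the sum, overlapped between the genotypes.

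Other neuron genes were read from 3 lists with 32 genes, of which 31 were tested and none passed the adjusted threshold in either direction. The 14 pan-neuronal genes had a median log2 fold change of 0.01, and of -0.04 without WT mouse 6. Their most abundant gene, *Nefh*, was at 1307 ± 224 CPM for WT against 1251 ± 107 CPM for *Opa1*+/- mice (log2 fold change -0.06, adjusted p = 0.938, and 0.04 without WT mouse 6). Of 9 genes for SGN regulators, transmitter transport and trophic receptors, 8 were tested, with a median of -0.08, and *Neurog1*, the early inducer of these neurons, was below the count minimum. The most abundant, *Ntrk2*, the receptor of brain-derived neurotrophic factor, was at 195.7 ± 6.14 CPM for WT against 185 ± 18.7 CPM for *Opa1*+/- mice (log2 fold change -0.08, adjusted p = 0.859).

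The 9 further subtype markers had a median log2 fold change of 0.18, with 8 values above 0 and 1 below, and of 0.03 without WT mouse 6. In this list 7 genes were lowest in WT mouse 6, as the nociceptor genes were. *Calca* and *Calcb*, which encode calcitonin gene-related peptides and are also known from nociceptors, were at 2.21 and 0.597 CPM there, against 52.0 to 83.6 CPM and 5.45 to 8.39 CPM elsewhere. Also lowest there was *Ngfr*, the low-affinity neurotrophin receptor and most abundant gene of the list, at 65.8 CPM there and 120 to 186 CPM elsewhere. Its log2 fold change was 0.07 (adjusted p = 0.970), and -0.15 without WT mouse 6 (adjusted p = 0.802). *Plk5*, a polo-like kinase gene listed here as a type II marker, was the only gene of the 3 lists with an unadjusted p under 0.05. It was at 1.71, 1.95, 1.61 and 2.20 CPM across WT mice 4, 5, 6 and 8 and at 2.66, 2.41, 2.54 and 2.36 CPM across *Opa1*+/- mice 2, 7, C and D, without overlap, as for 4.31% of all genes tested (log2 fold change 0.41, unadjusted p = 0.0322, adjusted p = 0.722). Its fitted log2 fold change without WT mouse 6 was 0.35 (unadjusted p = 0.0741). With all mice, its unadjusted p was 0.101 with DESeq2 and 0.0372 with limma voom, so it passed 0.05 under some settings only. Over all genes tested, 6.72% had an unadjusted p under 0.05 with edgeR.

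The members were also set beside the summed levels of 8 cell type lists over the 8 mice, in 72 relations adjusted among themselves. By Pearson r, 8 (11.1%) had an unadjusted exact permutation p under 0.05, by Spearman rho 1 (1.39%), and 0 passed the adjustment by either. The 3 largest were *Rbfox3* with the neutrophil and marrow sum (r = 0.84, exact permutation p = 0.0118, adjusted p = 0.337, and rho = 0.62, p = 0.115, adjusted p = 0.680), *Prph* with the hair cell sum (r = -0.82, p = 0.0116, adjusted p = 0.337, and rho = -0.57, p = 0.151, adjusted p = 0.680) and *Tubb3* with the hair cell sum (r = -0.80, p = 0.0231, adjusted p = 0.337, and rho = -0.57, p = 0.151, adjusted p = 0.680). Without the 2 mice farthest from the median of the sum, r was 0.37, -0.26 and -0.15, so these relations rest on those mice. Without WT mouse 6 alone, r was 0.84, -0.71 and -0.56. Next in size was *Rbfox3* with the erythroid sum (r = 0.80, exact permutation p = 0.0182, adjusted p = 0.337, and rho = 0.71, p = 0.0576, adjusted p = 0.680), where r was 0.90 without the 2 farthest mice and 0.73 without WT mouse 6. The hair cell sum was highest in WT mouse 6, at 325 CPM against 222 to 290 CPM.

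The genes most like each member in log2 CPM over the 8 mice, among 17965 other genes with a mean of at least 1 CPM, are given as a description. Without WT mouse 6 the same pairs had r from 0.905 to 0.996. The pairs were picked for the highest r over the 8 mice, so these values are no independent check. *Prph* was matched most closely, by *Gm765* (r = 0.999) and *Tusc5* (r = 0.994), and *Tubb3* by *Fstl1* (r = 0.988) and *L1cam* (r = 0.987), a neural adhesion molecule. *Calb1* was most like *Ccdc177* (r = 0.984) and *Slc24a2* (r = 0.973), *Calb2* like *Glyr1* (r = 0.971) and *Tsc22d1* (r = 0.959), and *Lypd1* like *Bmp4* (r = 0.982) and *Vstm2l* (r = 0.975). *Pou4f1* was most like *Tmem200a* (r = 0.979) and *Gm13359* (r = 0.973), *Runx1* like *Rspry1* (r = 0.971) and *Cfap36* (r = 0.966), *Gata3* like *S100a1* (r = 0.976) and *Hs1bp3* (r = 0.963), and *Rbfox3* like *Gm12421* (r = 0.992) and *Gm13215* (r = 0.972).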

How the data were processed

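Total RNA of isolated cochleae was made into CORALL libraries and sequenced as paired reads of 80 nucleotides. The authors trimmed adapters, used molecular identifiers, mapped reads to GRCm38 with STAR and deposited raw counts per gene symbol for each mouse, without normalization. The counting program and its use of strand are not given in the sources used here. Both sexes were used in the study, and more than 1 RNA extraction kit is named, but the labels give neither per sample.

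Counts were analysed with edgeR 4.0.16 (TMM, quasi-likelihood test) over 19366 genes with a mean count over 10 after DESeq2 size factors, with Benjamini-Hochberg adjustment. Entries with a number in place of a name (0.112% to 0.124% of counts) were left out. Levels are CPM, and exonic lengths and positions are from GENCODE vM21. Total counts per library ranged from 15978051 to 20828030, and 422 or more counts stood behind every member in every mouse. The test was checked on simulated counts with known changes, all larger in size than those fitted for the members. How often it would call changes as small as theirs was not tested.

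The 9 members and all lists were chosen with earlier results of these data known. Named genes are the members, *Opa1*, of 3 neuron lists each gene with an unadjusted p under 0.05 and the most abundant, the 3 largest relations, and the 2 genes most like each member. Nociceptor genes, *Gad1*, *Gad2*, *Slc32a1*, *Slc6a5*, *Gap43*, *Calca*, *Calcb*, *Neurog1*, *Gpr39*, *9230102O04Rik* and the relation of *Rbfox3* to the erythroid sum are named outside this rule, and the nociceptor list was added after the data were seen. Alternatives were other scalings, filters and tools (DESeq2 1.42.0, limma 3.58.1 voom), and mice left out.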

Additional observations from a re-analysis of the deposited data

Results flagged for a closer look

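By Dixon's criterion for a single mouse far from the other 3 of its genotype, 4 values stood out of 66 groups of 4 values examined, and chance gives about 1 in 20. *Rbfox3* was at 46.7 CPM in *Opa1*+/- mouse D, against 31.3 to 33.9 CPM in the other *Opa1*+/- mice. The neutrophil and marrow sum was 1375 CPM in WT mouse 4, whereas its 3 WT littermates had 422 to 514 CPM. *Lypd1* was at 1.81% of the pan-neuronal sum in *Opa1*+/- mouse 2, against 2.12% to 2.18% in the others, and *Prph* was at 50.3% of the *Calb2* level in *Opa1*+/- mouse C, against 62.3% to 64.4%. The low *Prph* and *Tubb3* of WT mouse 6 did not meet the criterion, because the other WT mice were spread as well.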

How the results depend on the processing

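No member passed the adjusted threshold under any of the 18 alternatives (162 values, lowest adjusted p 0.572), and 140 of the values kept their sign. With each mouse left out in turn, the log2 fold change ran from -0.49 to 0.0309 for *Calb1*, -0.10 to 0.11 for *Pou4f1*, -0.00486 to 0.19 for *Lypd1*, -0.10 to 0.00849 for *Runx1*, -0.0117 to 0.26 for *Rbfox3*, -0.12 to 0.15 for *Tubb3* and -0.17 to 0.37 for *Prph*, and the number of members with an unadjusted p under 0.05 from 0 to 1 (*Gata3* without *Opa1*+/- mouse 2, unadjusted p = 0.0404, adjusted p = 0.827, where 5.61% of all genes had an unadjusted p under 0.05). Other sign changes were *Pou4f1* at -0.00647 with total counts alone, *Pou4f1* at -0.0643 and *Tubb3* at -0.016 with limma voom, and *Pou4f1* at -0.0164, *Tubb3* at -0.0698 and *Prph* at -0.0253 with the nociceptor sum as a covariate. Without both *Opa1*+/- mice with 3-digit numbers, *Pou4f1* was at -0.0307, *Lypd1* at -0.0144, *Gata3* at -0.13 and *Rbfox3* at -0.0179, and without WT mouse 4 as well, *Pou4f1* was at -0.00714, *Lypd1* at -0.0553 and *Gata3* at -0.21. The cause of these changes was not tested. The count of genes called among all tested, 4 higher and 1 lower, became 22 higher and 3 lower with DESeq2, 9 higher with limma voom, 9 higher with robust estimation and 11 higher with no filter. With a mouse left out it ran from 0 to 8 higher and from 0 to 1 lower, and it was 0 higher and 0 lower without both 3-digit mice, with or without WT mouse 4. In those edgeR fits 1039 genes (WT mouse 4 also left out) and 565 genes (WT mouse 4 kept) had an unadjusted p under 0.05. The gene called lower, *Opa1*, had a log2 fold change of -0.85 without *Opa1*+/- mouse 2, -0.86 without both 3-digit mice and -0.87 without WT mouse 4 as well, with adjusted p of 0.0704, 0.260 and 0.656. No paired analysis was made, because the labels do not tell which littermates came from the same litter. With 4 mice per genotype, the intervals of the members leave room for ratios as low as 0.536 (*Calb1*) and as high as 1.91 (*Prph*).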
